A study of Ovis aries with 2 samples.

Results

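Of the 24137 barcodes kept from sheep embryos at embryonic day 16, 556 carried few transcripts, a retinoic acid binding protein or STMN2, and a keratin of simple epithelia. They were chosen by a fixed rule. A barcode had to hold 500 to 5000 unique molecular identifiers (UMIs, each 1 captured transcript), at least 3 UMIs summed over CRABP1, CRABP2 and STMN2, and at least 1 UMI of KRT8 or KRT18. They are called CRABP-keratin barcodes here. The rule uses measured values, so the levels of these 5 genes describe how the barcodes were picked, and every contrast with the barcodes left behind is a description without a test. Barcodes were kept if they held at least 200 genes and under 10% of UMIs on mitochondrial symbols, which 24137 of 27768 did.

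The study compared the long-tailed Ujumqin sheep with the short-tailed Hulunbuir sheep. Embryos of 24-month-old ewes were collected on day 16 after mating, freed of extraembryonic tissue, pooled by breed, dissociated, depleted of red blood cells by lysis and loaded on a 10x 3′ platform. Each breed gave 1 library, so breed, pool and library cannot be told apart, and cells of 1 library are not replicates. The ewes of both breeds had been synchronized with a progesterone sponge and an injection of PMSG, a gonadotropin, before mating.

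The deposited counts summed to 212933364 UMIs (Ujumqin) and 131385353 UMIs (Hulunbuir) over 26478 features, 9808 of them without a symbol. In both libraries the lowest barcode total was 500 UMIs. The libraries had 61 barcode sequences in common. In each library 2 CRABP-keratin barcodes were among these, and none was a CRABP-keratin barcode in both. Scrublet, a doublet caller, marked 126 kept Ujumqin barcodes and 1 kept Hulunbuir barcode, none of them CRABP-keratin barcodes. At 1 mark in 9583 the caller had not worked in the Hulunbuir library, so doublets were left in both.

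Retinoic acid is a vitamin A derivative that patterns the trunk and tail of the embryo along its long axis. CRABP1 and CRABP2 bind it inside the cell, and embryonic tissues that respond to it, such as the hindbrain, spinal cord, limb bud and neural crest, carry them. STMN2 regulates microtubules in growing neurons. KRT8 and KRT18 pair to form the intermediate filaments of simple epithelia, and the notochord also makes them. CD24, a surface glycoprotein, is found on epithelial progenitors and on young neurons.

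The working name of these barcodes, with STMN2 in it and a remark of being mostly Ujumqin, was only partly borne out. The Hulunbuir library gave more of them, 334 of 9583 kept barcodes (3.49%, 95% exact binomial interval 3.13 to 3.87). The Ujumqin library gave 222 of 14554 (1.53%, 1.33 to 1.74). Among barcodes of 500 to 5000 UMIs the gap was wider, with 334 of 2043 in the Hulunbuir library (16.3%, 14.8 to 18.0) and 222 of 6485 in the Ujumqin library (3.42%, 2.99 to 3.90). All intervals given here are at 95% and cover counting error only, not the spread between embryos.

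CRABP1 carried the selection. It had a UMI in 197 of 222 Ujumqin barcodes (88.7%) and in 302 of 334 Hulunbuir barcodes (90.4%). CRABP2 was found in 126 (56.8%) and 260 (77.8%). STMN2 was found in only 26 (11.7%) and 59 (17.7%). Of the UMIs that counted toward the limit of 3, CRABP1 gave 1079 of 1398 in the Ujumqin library and 1706 of 2480 in the Hulunbuir library, and STMN2 gave 54 and 152. STMN2 alone met the limit in 6 and 7 barcodes, while all 3 genes occurred together in 5 and 31. The keratin was mostly KRT18, present in 219 Ujumqin and 329 Hulunbuir barcodes, whereas KRT8 was present in 75 (33.8%) and 135 (40.4%). KRT8 without KRT18 was seen in 3 and 5 barcodes. The barcodes were therefore CRABP1 and KRT18 positive for the most part, and STMN2 was a marker of a minority.

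CD24, the label's marker that the rule did not use, had a UMI in 104 Ujumqin barcodes (46.8%, 40.1 to 53.6) and in 230 Hulunbuir barcodes (68.9%, 63.6 to 73.8). Depth affects such shares, so each barcode was also thinned to 500 UMIs. CD24 was then found in 13.1% (8.93 to 18.2) of the Ujumqin and 22.2% (17.8 to 27.0) of the Hulunbuir CRABP-keratin barcodes. In the other barcodes of 500 to 5000 UMIs it was found in 4.97% and 8.43%. As a background level, the shallow barcodes of the clusters led by the endothelial genes GNG11 and PLVAP had CD24 in 0.556% (Ujumqin cluster 13, n = 360, median 1022 UMIs) and 1.78% (Hulunbuir cluster 15, n = 169, median 1223 UMIs). CD24 thus exceeded this background in both libraries. KRT18 was less distinctive, since in the Hulunbuir library at 500 UMIs it was in 61.1% of CRABP-keratin barcodes, 56.2% of the others and 18.3% of the endothelial cluster.

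CD24 was lower in the barcodes just outside the marker limit than in those just inside, with no test. Those of the right depth with a keratin UMI and 2 UMIs of CRABP1, CRABP2 and STMN2 numbered 125 in the Ujumqin library, with CD24 at 239 CPM (UMIs of the gene per 1000000 UMIs of the group), and 148 in the Hulunbuir library, with CD24 at 317 CPM. Those with exactly 3 UMIs numbered 56 and 78, with CD24 at 406 and 404 CPM. At the upper depth limit, 121 Hulunbuir barcodes of 4000 to 5000 UMIs met the marker parts of the rule and 134 did above 5000 and up to 6000 UMIs. The corresponding Ujumqin counts were 28 and 19.

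The rule limits depth, so the marker combination was also looked for in deeper barcodes after every barcode was thinned to 1000 UMIs. In the Ujumqin library the combination was more frequent in shallow than in deep barcodes. It was met by 43 of 1738 barcodes of 1000 to 2000 UMIs (2.47%, 1.80 to 3.32) and by 42 of 1402 of 2000 to 5000 UMIs (3.00%, 2.17 to 4.03). It was then met by 10 of 854 (1.17%) up to 10000 UMIs, 7 of 2536 (0.276%) up to 20000 and 6 of 4679 (0.128%) above. The Hulunbuir shares in the same order were 4.20% of 547, 6.22% of 980, 5.64% of 1933, 5.10% of 3646 and 2.40% of 1961. Only the deepest Hulunbuir bin, at 1.77 to 3.17, had an interval clear of the 3 bins before it. The share in barcodes above 5000 UMIs over that in shallower ones was −3.25 on the log2 scale in the Ujumqin library (−3.98 to −2.57) and −0.28 in the Hulunbuir library (−0.63 to 0.08). Red cells make up part of the deeper Ujumqin barcodes, whose median erythroid share was 42.6%. Among the 2917 deeper Ujumqin barcodes under 10% erythroid UMIs, a limit added after the data were seen, 21 met the combination (0.720%), and the log2 ratio was −1.91 (−2.67 to −1.21). With the same limit the Hulunbuir ratio stayed at −0.28.

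**Figure D1:**
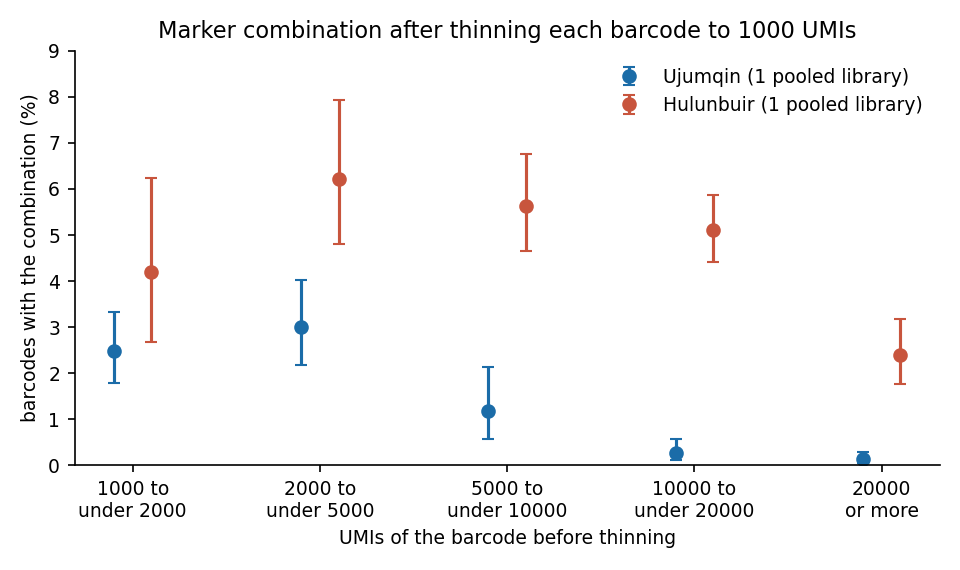
Percent of barcodes that met the marker parts of the rule after thinning to 1000 UMIs (y axis), by total UMIs before thinning in 5 bins (x axis), for the Ujumqin and Hulunbuir libraries, with exact binomial 95% intervals as bars. The Ujumqin share lay at 2.47% and 3.00% in the shallow bins and at 0.128% in the deepest, and the Hulunbuir share stayed between 4.20% and 6.22% up to 20000 UMIs.

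In depth the CRABP-keratin barcodes stood above the other barcodes of 500 to 5000 UMIs. The Ujumqin ones had a median of 2411 UMIs (508 to 4987) and 680.5 genes, and the others 938 UMIs and 362 genes. The Hulunbuir ones had a median of 3478 UMIs (582 to 4992) and 1102.5 genes, and the others 1584 UMIs and 667 genes. After thinning to 500 UMIs the number of genes differed little, at 250 against 240 in the Ujumqin library and 295 against 303 in the Hulunbuir library. Deeper barcodes that met the marker parts of the rule after thinning to 2000 UMIs, 40 Ujumqin and 931 Hulunbuir, had 276 and 289 genes at this sampling. By gene diversity the Hulunbuir CRABP-keratin barcodes were thus close to both groups. The Ujumqin ones, with an upper quartile of 266, were closer to the other shallow barcodes than to the deeper ones.

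The mitochondrial share was low in most of these barcodes but not in all. Mitochondrial transcripts come from the organelle's own genome, and their share is widely read as a sign of cell quality. Its median was 0.523% (quartiles 0.207 and 1.37) in the Ujumqin CRABP-keratin barcodes and 0.322% (0.113 and 3.49) in the Hulunbuir ones. The deeper barcodes with the same markers had medians of 2.43% and 3.38%. Under 1% lay 151 of 222 Ujumqin barcodes (68.0%, 61.5 to 74.1) and 210 of 334 Hulunbuir barcodes (62.9%). At 2% and over lay 39 (17.6%) and 108 (32.3%), with 32 and 16 in between. The Hulunbuir barcodes thus fell mostly on either side, and few lay between 1% and 2%. The other barcodes of the same depth had low medians too, 1.29% and 0.458%, and only 3.90% of all deeper Ujumqin and 4.19% of all deeper Hulunbuir barcodes lay under 1%. In counts, the CRABP-keratin barcodes held a median of 12 mitochondrial UMIs in the Ujumqin and 9 in the Hulunbuir library, the others of that depth held 13 and 6, and the deeper ones with the same markers held 328.5 and 422.

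**Figure D2:**
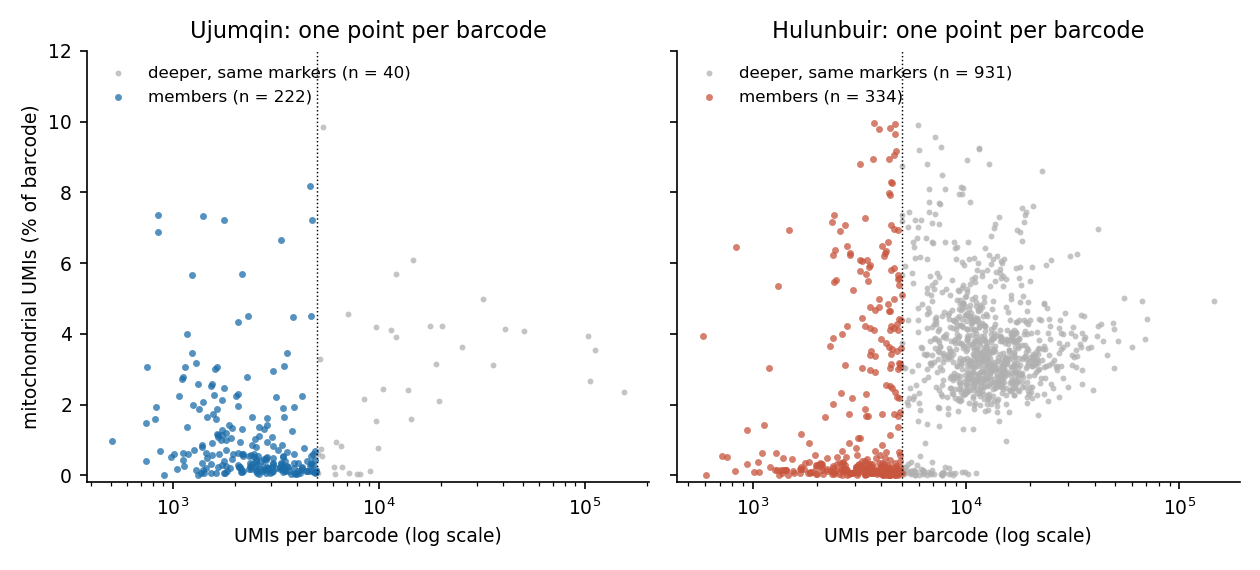
Percent of UMIs on mitochondrial symbols (y axis) against total UMIs (x axis, log scale), with 1 point per barcode, for CRABP-keratin barcodes (members, coloured) and deeper barcodes with the same markers (grey), and a dotted line at 5000 UMIs. Most coloured points lay near 0, with medians of 0.523% (Ujumqin) and 0.322% (Hulunbuir), and the grey points had medians of 2.43% and 3.38%.

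The Hulunbuir CRABP-keratin barcodes under 1% were set beside those at 2% and over. Genes for ribosomal proteins took 27.3% and 23.7% of their UMIs. The nuclear genes of oxidative phosphorylation, whose proteins are imported into the mitochondrion, summed to 9000.0 and 7770 CPM. CRABP1 stood at 1607 and 1245 CPM, KRT18 at 3641 and 2678 CPM and CD24 at 429 and 450 CPM. The median totals were 3254.5 and 4025.5 UMIs, and the numbers of genes at 500 UMIs were 294 and 298. The list of nuclear-retained RNAs, which marks nuclei and leaking cells, had none of its 7 symbols among the features. Whether these barcodes were intact cells, damaged cells or fragments was not tested beyond these values.

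Erythroid transcripts, from the genes of red blood cells, were present at a near fixed number in the Ujumqin barcodes. They were counted over the erythroid list and over 5 features without a symbol that were at least 8-fold higher in deep Ujumqin barcodes with UMIs of ALAS2 and AHSP, genes of haem and haemoglobin assembly, than in those without. The median was 126 UMIs per CRABP-keratin barcode (quartiles 115 and 135.8; 22 to 497), and it was 126 also in the other barcodes of that depth and in barcodes under 200 genes. Among CRABP-keratin barcodes the median was 124 at 500 to under 2000 UMIs (n = 83), 126 at 2000 to under 3500 (n = 92) and 128 at 3500 to 5000 (n = 47), so that their share fell from 8.77% to 4.84% and 3.00%. The deeper barcodes with the same markers held 142.5 such UMIs. In the Hulunbuir library the median was 1 UMI per CRABP-keratin barcode (0 to 5) and 3 in the deeper ones. The red cell signal of the Ujumqin barcodes thus did not scale with their own transcripts, and its part in the contrasts below was not tested except where a value without it is given.

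**Figure D3:**
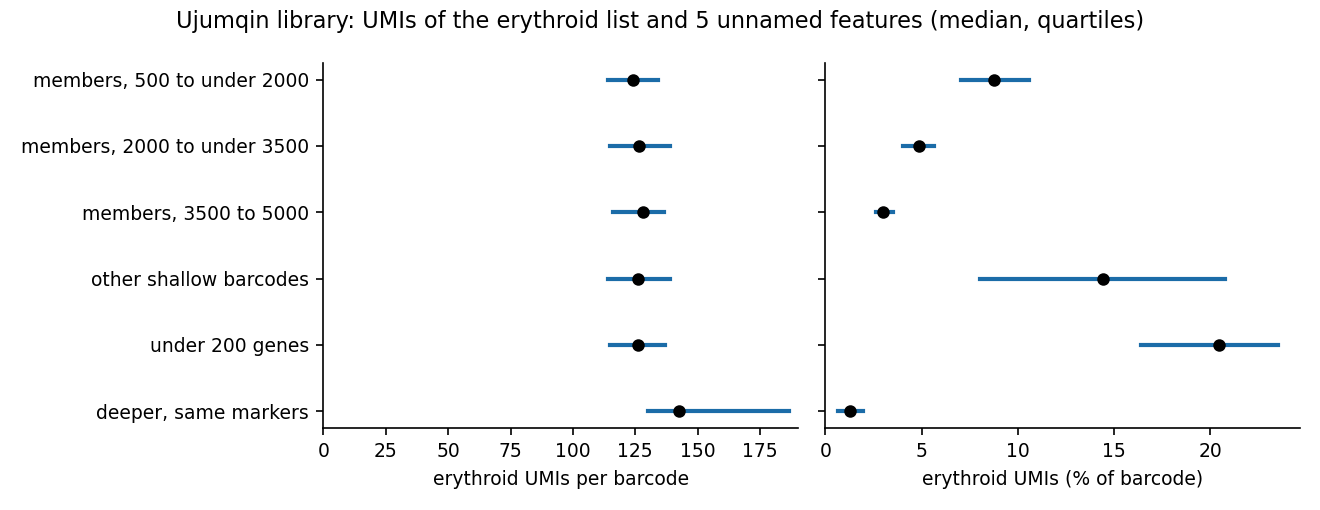
Median and quartiles over Ujumqin barcodes of the erythroid UMIs, as a number per barcode (left) and as a percent of the barcode's UMIs (right), for CRABP-keratin barcodes (members) of 3 depths, other barcodes of 500 to 5000 UMIs, barcodes under 200 genes and deeper barcodes with the same markers. The number stayed at 124, 126 and 128 over the 3 depths, and the percent fell from 8.77 to 3.00.

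Within the same range of depth, though not at the same median, the genes higher in CRABP-keratin barcodes than in the other barcodes included WNT5B in both libraries and, in the Ujumqin library, the Notch ligands DLL1 and DLL3 and the homeobox genes HOXA9 and HOXB7, beside the rule's own. A feature was tested for size if it reached 20 CPM in either group and was called at 4-fold. In the Ujumqin library 13 of 2726 features (0.477%) were higher and 51 (1.87%) lower. Among 3635 Hulunbuir features, 6 (0.165%) were higher and 29 (0.798%) lower. The median log2 ratio over all features tested was 0.14 and −0.05. Of the 13 Ujumqin features, CRABP1 (3.41) and CRABP2 (2.89) are rule genes. The others included the ligands WNT5B (2.92) and CXCL14 (2.52), the Notch ligands DLL1 (2.30) and DLL3 (2.10), and the position genes HOXA9 (2.92), HOXB7 (2.14) and PITX1 (2.04). They also included the secretory granule genes SCG5 (2.23) and CHGA (2.19), COL2A1 (2.23), a cartilage and notochord collagen, and FBXO15 (2.08). All but CRABP1, CRABP2 and CXCL14 were under 20 CPM in the other barcodes, with 12 to 28 UMIs each in the CRABP-keratin barcodes. They were tested only through their level in the CRABP-keratin barcodes, so the filter fixed their direction, though not the size of the ratio. The Hulunbuir features were CRABP1 (2.86), LY6G6D (2.49), WNT5B (2.21), SLC2A5 (2.17), CRABP2 (2.03) and 1 without a symbol (3.96).

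WNT5B, a WNT ligand of the primitive streak and tail bud, was the one gene outside the rule that was called higher in both libraries. It stood at 23.0 CPM in the Ujumqin CRABP-keratin barcodes and 3.04 CPM in the others (log2 ratio 2.92, 1.83 to 3.93). The Hulunbuir values were 88.4 and 19.1 CPM (2.21, 1.75 to 2.69). WNT5B was under 20 CPM in the others of both libraries, so it entered the comparison only through the CRABP-keratin barcodes. When only the 41 Ujumqin barcodes under 1% erythroid UMIs served as the comparison, WNT5B (−0.061), DLL1 (−0.061) and PITX1 (−0.18) lay just below 0. That group held only 125195 UMIs in all. Its level of each of these genes was 3 counts, which is also the floor that stands for a count of 0. Their direction against that group is therefore not settled.

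At 2-fold, a limit added after the data were seen, 123 Ujumqin (4.51%) and 47 Hulunbuir features (1.29%) were higher, and 161 (5.91%) and 106 (2.92%) lower. Of the 2646 features tested in both libraries, 13 were higher in both and 37 lower in both, and none went in opposite directions. The 13 were CRABP1, CRABP2, STMN2, CD24, WNT5B, DLL3, DUSP6, RCN2, ERICH2, TMSB15B, HOXA7, MAP2K6 and FEZ1. CD24 stood at 315 against 134 CPM in the Ujumqin library (1.23, 0.99 to 1.46) and at 446 against 218 CPM in the Hulunbuir library (1.03, 0.86 to 1.20). DLL3, a Notch ligand of the presomitic mesoderm and of early neurons, stood at 33.6 against 7.84 CPM (2.10, 1.28 to 2.85) and at 129 against 46.1 CPM (1.48, 1.14 to 1.82). DUSP6, a phosphatase induced by FGF signalling, stood at 31.8 against 12.9 CPM and at 264 against 100 CPM. FEZ1, an adaptor of axon transport, stood at 38.9 against 17.0 CPM and at 123 against 52.0 CPM. In the Ujumqin library DLL3, DUSP6 and FEZ1 were under 20 CPM in the others, so they too were tested only through the CRABP-keratin barcodes. CDX2, a caudal homeobox gene, was under the 20 CPM limit in the Ujumqin library, at 19.4 against 3.63 CPM (2.42, 1.28 to 3.45), and stood at 113 against 44.9 CPM in the Hulunbuir library (1.34, 0.99 to 1.69).

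**Figure D4:**
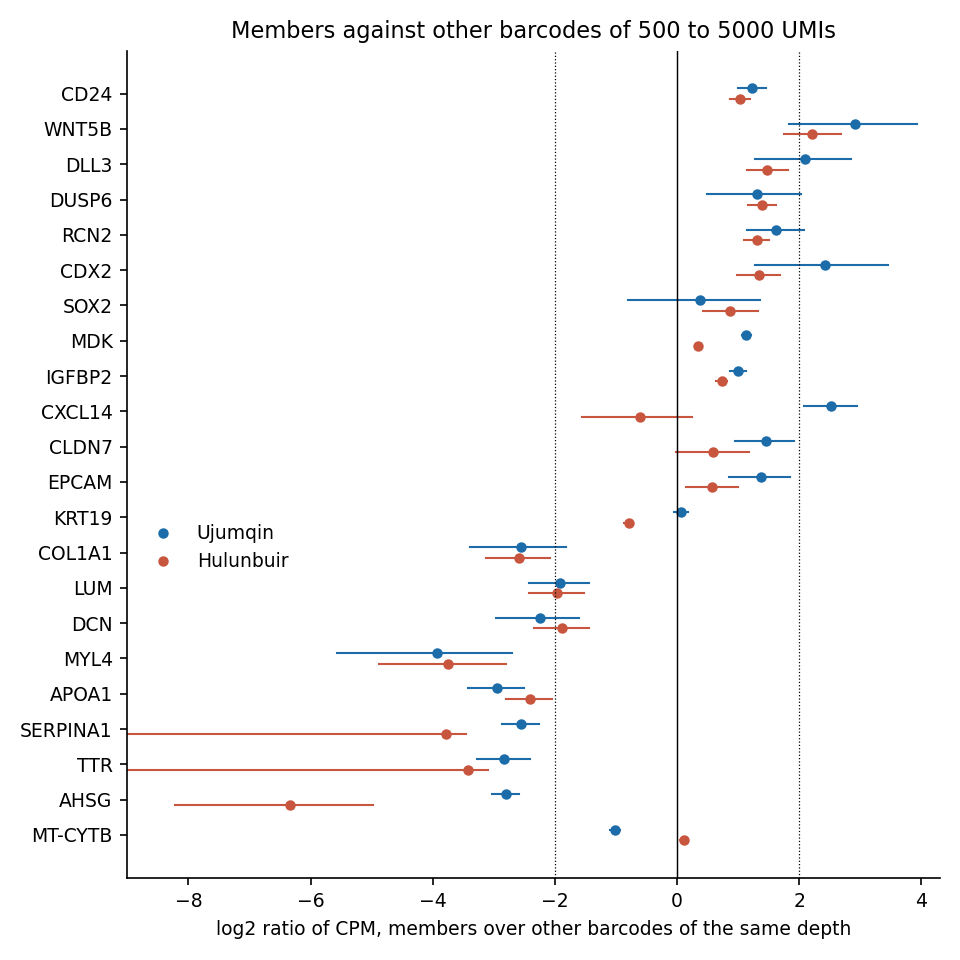
Log2 ratio of CPM, CRABP-keratin barcodes (members) over other barcodes of 500 to 5000 UMIs (x axis), for named genes (y axis) in the Ujumqin and Hulunbuir libraries, with exact conditional 95% intervals as bars and dotted lines at 4-fold. CD24, WNT5B, DLL3 and CDX2 lay to the right of 0 in both libraries and COL1A1, MYL4 and AHSG to the left. The Hulunbuir points of SERPINA1 and TTR, with no UMI in these barcodes, were set at the floor of 3 counts, and their bars run to the edge of the axis.

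Beyond CRABP1 and CRABP2, few genes of the retinoic acid pathway reached the level compared. Of its 18 listed genes, 4 were tested in the Ujumqin and 5 in the Hulunbuir library, and at 4-fold only CRABP1 and CRABP2 were called higher. RARG, a retinoic acid receptor, stood at 12.4 against 2.11 CPM in the Ujumqin library, both under the 20 CPM limit. In the Hulunbuir library it stood at 27.7 against 13.8 CPM (1.00). It passed the limit there only through the CRABP-keratin barcodes, so the filter fixed its direction. CYP26A1, the enzyme that degrades retinoic acid in the tail bud, stood at 10.7 against 2.35 CPM in the Hulunbuir barcodes, both under the 20 CPM limit. RBP4, the retinol carrier of plasma, lay at −0.61 and −1.78.

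Markers of neurons were nearly absent. Of 17 neuronal features, STMN2 alone reached 20 CPM in either library, and 12 in the Ujumqin and 9 in the Hulunbuir CRABP-keratin barcodes had no UMI at all. STMN2 itself stood at 95.4 CPM against 33.0 CPM (1.53, 1.08 to 1.96) and at 136 against 37.6 CPM (1.85, 1.50 to 2.20). Of 5 microtubule genes tested beside the rule gene STMN2, 1 in the Ujumqin and 0 in the Hulunbuir library were 2-fold higher, with medians of 0.90 and 0.24. TUBA1A, a tubulin of neurons, stood at 99.0 against 69.5 CPM and at 246 against 152 CPM. MAP1B, which stabilises microtubules, stood at 77.8 against 38.9 CPM (1.00) in the Ujumqin library and had a ratio of 0.45 in the Hulunbuir library. Of the neural tube progenitor list, 1 of 2 genes tested was 2-fold higher in the Ujumqin library and 0 of 6 in the Hulunbuir library. SOX2 stood at 15.9 against 12.3 CPM (0.37, −0.80 to 1.35) and at 60.7 against 33.2 CPM (0.87, 0.42 to 1.32). Of the neural crest list, none was tested in the Ujumqin and 1 in the Hulunbuir library, and it was not called.

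Of the simple epithelium list, 8 genes were tested in each library, among them the rule genes KRT8 and KRT18. Without these, 3 of 6 were 2-fold higher in the Ujumqin library (median 0.71), where 4.51% of all features were. In the Hulunbuir library 0 of 6 were higher (1.29% of all features) and 2 were lower (2.92%), with a median of −0.20. EPCAM, an adhesion molecule of epithelia, stood at 70.7 against 27.4 CPM (1.37) and at 63.4 against 42.6 CPM (0.57). CLDN7, a tight junction protein, stood at 77.8 against 28.4 CPM (1.45) and at 33.1 against 22.0 CPM (0.59). KRT18 itself stood at 3487 against 1413 CPM in the Ujumqin library (1.30, 1.23 to 1.37) and at 3246 against 3073 CPM in the Hulunbuir library (0.08, 0.02 to 0.13). KRT19, a keratin of the same kind that the rule did not use, stood at 1195 against 1145 CPM (0.06) and at 1529 against 2648 CPM (−0.79). Most shallow Hulunbuir barcodes held keratin in any case, with a KRT8 or KRT18 UMI in 78.8% of them against 53.1% of the Ujumqin ones.

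The lower genes included markers of other embryonic cell types. Of the mesenchyme list, which holds collagens, small proteoglycans and other genes, 6 of 9 tested were 2-fold lower in the Hulunbuir library (median −1.88). In the Ujumqin library 4 of 7 were (median −1.54, with 1 higher). Of all features, 2.92% and 5.91% were 2-fold lower in these libraries. COL1A1 stood at 26.5 against 155 CPM (−2.55) and at 29.5 against 176 CPM (−2.58). DCN lay at −2.24 and −1.88, and LUM at −1.91 and −1.96. Of the cardiomyocyte list, 2 of 3 Ujumqin and 3 of 4 Hulunbuir genes tested were 4-fold lower, beside 1.87% and 0.798% of all features. The myosin light chain MYL4 stood at 8.84 against 135 CPM and at 8.04 against 108 CPM. MYL7, its atrial relative, had no UMI in CRABP-keratin barcodes of either library. By a floor of 3 counts over the group, its level there was at least 10.5-fold lower (Ujumqin) and at least 35.7-fold lower (Hulunbuir). Of the endothelium list, 1 of 2 tested was 2-fold lower in the Ujumqin library and 3 of 4 in the Hulunbuir library. The remaining gene of each library was higher, at 0.51 and 0.40. GNG11, a G protein subunit not on that list, stood at 3.54 against 270 CPM (−6.25) and at 17.0 against 86.9 CPM (−2.36). It was among the leading genes of Ujumqin cluster 13, with PLVAP and PECAM1, and of cluster 10, with GP1BB and CLEC1B.

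Genes of extraembryonic endoderm, the yolk sac epithelium that secretes plasma proteins, were lower than in the other shallow barcodes. At 4-fold, 6 of 8 tested were lower in the Ujumqin library (median −2.68) and 6 of 7 in the Hulunbuir library (median −3.78). Of all features, 1.87% and 0.798% were. AHSG stood at 306 against 2132 CPM (−2.80) in the Ujumqin library and at 3.57 against 288 CPM (−6.33) in the Hulunbuir library. SERPINA1, APOA2 and TTR stood at 166, 120 and 81.3 CPM in the Ujumqin CRABP-keratin barcodes. They had no UMI in the Hulunbuir ones, at least 13.7-, 32.7- and 10.7-fold below the other barcodes. Per barcode the list gave a median of 2 UMIs in the Ujumqin CRABP-keratin barcodes, 2 in the others of that depth, 2 in Ujumqin barcodes under 200 genes and 0 in the Hulunbuir CRABP-keratin barcodes. No UMI of it was found in 18.5% of the Ujumqin CRABP-keratin barcodes and in 19.1% of those under 200 genes. Its number per barcode was thus close to that of barcodes under 200 genes. Those had a median of 602 UMIs and a median mitochondrial share of 28.9%. The source of these UMIs was not tested. Against the 41 Ujumqin barcodes under 1% erythroid UMIs these genes turned to higher, with AHSG at 2.45, APOA2 at 2.33, SERPINA1 at 1.79 and TTR at 0.54. Their direction in the Ujumqin library therefore depended on which shallow barcodes were the comparison.

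The remaining lists showed few calls against other barcodes of 500 to 5000 UMIs. Genes of apoptosis, S phase and nuclear oxidative phosphorylation had no member 2-fold apart in either library, nor did 49 ribosomal protein genes (medians 0.20 and 0.02). Of 8 stress and immediate-early genes tested, 1 was 2-fold lower in the Ujumqin library and 0 in the Hulunbuir library, with medians of −0.38 and −0.19. Of the 11 mitochondrially encoded genes, 6 were 2-fold lower in the Ujumqin library (median −1.02) and 0 in the Hulunbuir library (median 0.12). Surface ectoderm and germ cell lists had no gene that reached 20 CPM, and amnion and trophoblast, gut endoderm, notochord and mesothelium lists had at most 3. The notochord genes tested included the keratins KRT8, KRT18 and KRT19, which are not particular to it. Of 7 erythroid genes tested in the Ujumqin library, 5 were 2-fold lower (median −1.46). Of the 11 genes of the somite list, only DLL1 and DLL3 were tested in the Ujumqin library, and 8 had no UMI in the CRABP-keratin barcodes. Both tested genes reached 20 CPM only in the CRABP-keratin barcodes, so the filter fixed that they were higher.

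Clustered without the rule genes and CD24, the CRABP-keratin barcodes did not form one group. The kept barcodes of the Ujumqin library gave 24 clusters, and 12 of them held CRABP-keratin barcodes. The Hulunbuir library gave 19, and 14 held them. In the Ujumqin library 136 of 222 (61.3%) fell in cluster 5, led by CRABP1, STMN2, CD24, CRABP2, PTN and SOX2, of which they made up 10.5%. Another 34 (15.3%) fell in cluster 8, led by WFDC2, S100A2, CXCL14, KRT7, CLDN4 and CLDN7, and 13 fell in cluster 4, led by SERPINA1, CRABP1, AHSG and AFP. Those in clusters 5 and 8 differed in epithelial genes, with CXCL14 at 0 and 676 CPM, CLDN7 at 8.30 and 395 CPM, and KRT18 at 5073 CPM in cluster 8. CXCL14 and CLDN7 led cluster 8 and were not removed before clustering, so their difference could arise from the clustering itself. Of clusters 5 and 8, only cluster 8 held UMIs of the CXCL14 called higher above.

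In the Hulunbuir library 195 of 334 (58.4%) fell in cluster 3, led by KRT19, KRT8, HOXA11, CDX2 and HAND2, and 57 (17.1%) in cluster 4, led by CDX2, KRT19 and PITX1. These 2 clusters differed in mitochondrial share, with medians of 0.14% and 4.99% over their CRABP-keratin barcodes. Cluster 4 did not hold all of the high shares, since 108 Hulunbuir CRABP-keratin barcodes lay at 2% and over. Deeper barcodes with the same markers showed the same difference, 34 in cluster 3 at 0.10% and 270 in cluster 4 at 4.02%. Mitochondrial genes were not removed before clustering, so this difference could arise from the clustering itself. Nothing is read from its presence at both depths.

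The smaller Hulunbuir clusters are described by their leading genes. These genes helped to place barcodes of both depths in a cluster, so the 2 depths are given side by side and nothing is read from their likeness. In cluster 7, with FGF8 and DLL3 among its leading genes, 15 CRABP-keratin barcodes had FGF8, a growth factor of the tail bud, at 276 CPM against 280 CPM in 178 deeper barcodes of that cluster. In cluster 13, led by SOX2, STMN2 and PAX6, 12 had the neural genes SOX2 at 442 against 417 CPM and PAX6 at 189 against 136 CPM. In cluster 10, led by CXCL14, SPP1 and CLDN7, 11 had CLDN7 at 583 against 273 CPM. In cluster 11, led by SOX2, FGF8 and STMN2, 10 had SOX2 at 519 against 385 CPM. In cluster 8, with FGF8 and DLL3 among its leading genes, 9 had DLL3 at 725 against 481 CPM. SOX2 and CLDN7 thus led different clusters, while SOX2 and FGF8 led cluster 11 together. Of the shallow barcodes in clusters 7 and 8, 62.5% and 56.2% met the rule, and of those in cluster 3, 16.3%.

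**Figure D5:**
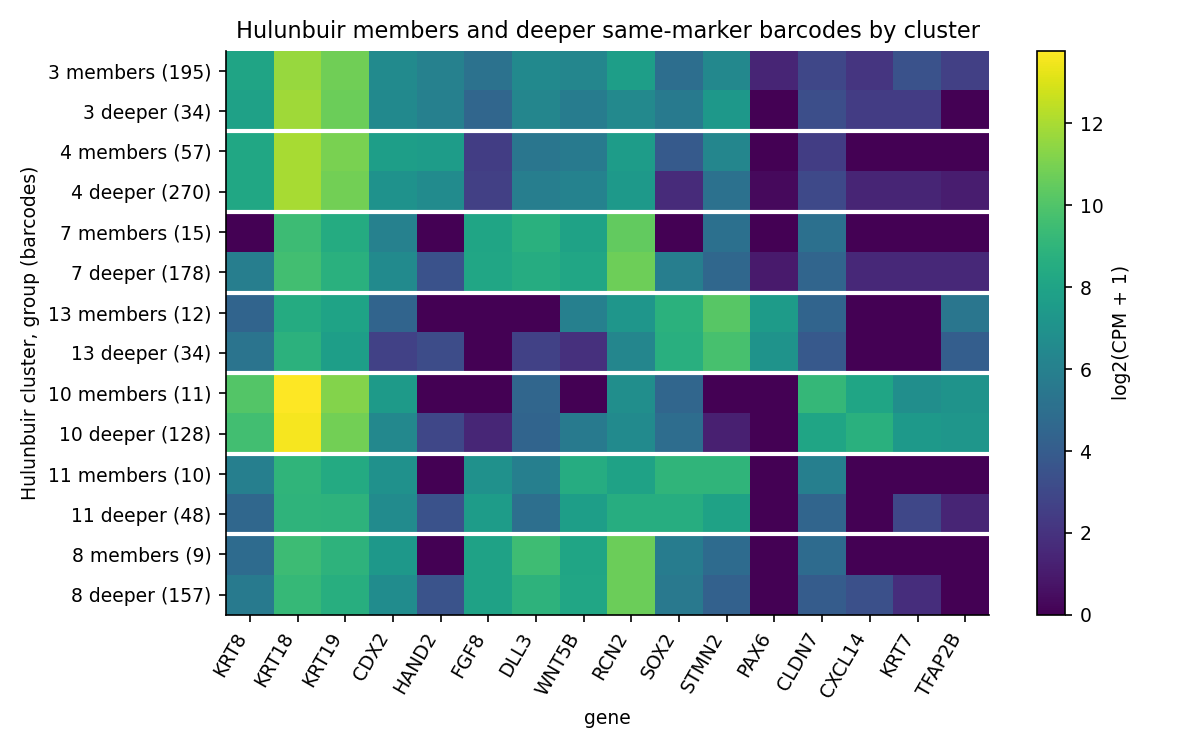
Heat map of log2(CPM + 1) of named genes (columns) in the CRABP-keratin barcodes (members) and the deeper barcodes with the same markers of 7 Hulunbuir clusters (rows, with the number of barcodes). SOX2 was high at both depths in cluster 13 (442 and 417 CPM), and FGF8 in cluster 7 (276 and 280 CPM).

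Against deeper barcodes with the same markers, the Hulunbuir CRABP-keratin barcodes differed in few genes and the Ujumqin ones in more. Of 3470 Hulunbuir features tested, 0 (0%) were 4-fold higher and 3 (0.0865%) lower, among them CXCL14 (−2.60) and AP1M2 (−2.31), a sorting adaptor of epithelia. At 2-fold, 20 (0.576%) were higher and 20 (0.576%) lower. Of 2927 Ujumqin features, 18 (0.615%) were 4-fold higher and 59 (2.02%) lower, and 19 and 141 with levels taken as a mean over barcodes. At 2-fold, 92 (3.14%) were higher and 349 (11.9%) lower. The Ujumqin comparison rests on only 40 deeper barcodes, and the deepest of them held 155098 of their 968692 UMIs. The groups also lay in different clusters. Ujumqin cluster 11 held 42.5% of the deeper and 3.60% of the CRABP-keratin barcodes, and cluster 5 held 25% and 61.3%. Hulunbuir cluster 3 held 3.65% and 58.4%. How far the calls reflect these mixtures or single barcodes was not tested.

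The Ujumqin genes that were 4-fold higher than in deeper barcodes included those of yolk sac and red cells, and also CWF19L2 (2.36), SLC25A11 (2.04) and the metallothionein MT1A. AHSP, a chaperone of haemoglobin, stood at 115 against 13.4 CPM, and AFP had a ratio of 2.98, APOA2 of 2.86, SERPINA1 of 2.69, TTR of 2.60, MT1A of 2.58, ALAS2 of 2.13 and AHSG of 2.06. Of the extraembryonic endoderm list, 5 of 7 were 4-fold higher, beside 0.615% of all features. These ratios are per total UMIs, whose medians were 2411 in the CRABP-keratin and 10204 in the deeper barcodes. Per barcode the extraembryonic endoderm list gave a median of 2 UMIs in the CRABP-keratin and 4 in the deeper barcodes. The erythroid UMIs had medians of 126 and 142.5. The CRABP-keratin barcodes thus held no more of these UMIs per barcode by median. The lower genes included LGALS3 (−3.92), TFAP2B (−3.55), COL4A1 at 23.0 against 171 CPM (−2.90), COL1A1 (−2.27), KDM5B (−2.27) and the immediate-early gene FOS at 101 against 458 CPM (−2.19). All 11 mitochondrially encoded genes were 2-fold lower in the Ujumqin library (median −1.60), and 1 of 11 in the Hulunbuir library (median −0.82). MT-CYTB stood at 1957 against 7205 CPM (−1.88) and at 3951 against 7214 CPM (−0.87).

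Both depths were picked on the rule genes, whose levels are therefore a description. CRABP1 stood at 1907 and 1755 CPM in the Ujumqin and at 1524 and 1754 CPM in the Hulunbuir library, and CRABP2 at 468 and 344 CPM and at 556 and 581 CPM. KRT18 stood at 3487 and 2304 CPM and at 3246 and 3964 CPM, and KRT8 at 209 and 120 CPM and at 253 and 268 CPM. STMN2 was lower than in deeper barcodes in the Ujumqin library, at 95.4 against 215 CPM (−1.17, −1.63 to −0.73), and higher in the Hulunbuir library, at 136 against 65.5 CPM (1.05, 0.79 to 1.30). Across 1470 Ujumqin and 1927 Hulunbuir features, Pearson's r of log2(CPM + 1) was 0.962 and 0.990 with the deeper barcodes and 0.968 and 0.979 with other barcodes of the same depth. It was 0.869 and 0.812 with barcodes under 200 genes. Features are not independent replicates, and the groups share libraries, so r is a description.

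Between the breeds' libraries the CRABP-keratin barcodes differed widely. Of 3431 features, 253 (7.37%) were 4-fold higher in the Hulunbuir library and 27 (0.787%) lower. At 2-fold, 1012 (29.5%) were higher and 51 (1.49%) lower. The median log2 ratio over all features was 0.52, and relative to it 113 were 4-fold higher and 33 lower. Values below are relative to this median, Hulunbuir minus Ujumqin. No test was possible with 1 library on each side.

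Several genes of signalling and patterning, chosen for their earlier mention here, were higher in the Hulunbuir barcodes. DUSP6 differed by 2.54, the caudal gene CDX2 by 2.03, WNT5B by 1.43, DLL3 by 1.42 and the neural genes SOX2 by 1.42 and NES by 1.13. By the levels given above, DUSP6, CDX2, WNT5B, DLL3 and SOX2 were also higher in the other Hulunbuir barcodes of the same depth than in the Ujumqin ones. WNT5B stood at 19.1 and 3.04 CPM in those others. The direction of these 5 differences was thus not particular to the CRABP-keratin barcodes, and how far they belong to the whole libraries was not tested. The chromatin gene ARID4B differed by 3.64, the basement membrane collagen COL4A1 by 2.31 and the splicing kinase CLK1 by 2.23. The chemokine CXCL14 differed by −3.72, from 115 CPM in the Ujumqin to 12.5 CPM in the Hulunbuir barcodes. AHSG differed by −6.94, and SERPINA1, APOA2 and TTR, which had no Hulunbuir UMI, were at least 62.0-, 44.9- and 30.3-fold lower before the median was taken off. The genes that defined the barcodes were closer, with CRABP1 at −0.84, KRT18 at −0.62, CRABP2 at −0.27 and STMN2 at −0.01. These are genes by which both sets were picked. CD24, which the rule did not use, also lay at −0.01. The mitochondrial genes, of which 2 of 11 were 2-fold higher in the Hulunbuir barcodes relative to the median and 7 before it was taken off, and the red cell UMIs moved with the same contrast, and their part in it was not tested.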

How the data were processed

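The authors deposited raw counts of UMIs for each feature in each barcode, without normalization. They used Cell Ranger (version 5.0.0 in the matrix header and the study's methods, 3.1.0 per the labels) and the Rambouillet v1.0 reference. From the counts, all values here were derived with Python 3.11.15, numpy 2.4.6, scipy 1.17.1 and scanpy 1.11.5. A level is a gene's UMIs over all UMIs of a group, per 1000000 (CPM), with an exact Poisson interval. Ratios of levels carry an exact conditional binomial interval and shares an exact Clopper-Pearson interval, all at 95%. With 1 library per breed no test was run.

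Features of at least 20 CPM in either group were compared, and 4-fold counted as a call. Deeper barcodes with the same markers are those above 5000 UMIs that met the marker limits after thinning to 2000 UMIs. Clusters came from each library's 2000 most variable genes without the rule genes and CD24, 30 components, 20 neighbours and leidenalg 0.10.2 at resolution 1. Scripts were checked on simulated counts.

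The CRABP-keratin barcodes, the gene lists and the settings were chosen with earlier results of these data known. Genes named by rule were the rule genes and CD24, the 15 highest and 10 lowest symbols of at least 100 CPM against other barcodes of that depth in the Ujumqin library, the 10 highest and 10 lowest against deeper barcodes, the 8 highest and 8 lowest between libraries, and up to 6 genes of each list of at least 50 CPM. All other genes named, among them the features called at 4-fold below 100 CPM and the genes of single clusters, were chosen after their values were seen. Brachyury was not used here, and some genes that the rule names are not reported here.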

Additional observations from a re-analysis of the deposited data

Results flagged for a closer look

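Barcodes left out by the filters were searched for the same markers. Among barcodes of 500 to 5000 UMIs over the 10% mitochondrial limit, 7 of 1445 in the Ujumqin library met the marker parts of the rule (0.484%, 95% exact interval 0.195 to 0.995), with a median mitochondrial share of 13.7%. In the Hulunbuir library 29 of 861 did (3.37%, 2.27 to 4.80), with a median of 14.6%. These lie above the 3 counts of the total that a count of 0 allows, which is why they stand here. Among barcodes under 200 genes, 0 of 998 Ujumqin and 0 of 153 Hulunbuir barcodes met them. By the same 3 counts this allows up to 0.301% and 1.96%, and by the exact 95% interval up to 0.369% and 2.38%.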

How the results depend on the processing

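All values rest on counts of 1 library per breed, so they carry counting error alone, and no test was possible. No paired analysis was possible because each breed has 1 library and no result comes from a test. Of 812 recomputed ratios of named genes, 716 stayed within the counting interval of the value given, 89 left it in the same direction and 7 reversed. All 7 reversed in the Ujumqin library against the 41 shallow barcodes under 1% erythroid UMIs: APOA2 (2.33), AHSG (2.45), SERPINA1 (1.79), TTR (0.54), WNT5B (−0.061), DLL1 (−0.061) and PITX1 (−0.18). For WNT5B, DLL1 and PITX1 the level in those 41 barcodes was 3 counts over 125195 UMIs, the floor that stands for a count of 0. The cause of the reversals was not tested.

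The number of CRABP-keratin barcodes fell to 117 (Ujumqin) and 180 (Hulunbuir) with a limit of 5 UMIs, and to 116 in the Hulunbuir library with an upper limit of 3000 UMIs. Thinned to 500 UMIs, the log2 ratio of the marker share, deeper over shallow, was −2.40 and 0.38, so that the Hulunbuir sign was not stable, and with deeper barcodes under 10% erythroid the Ujumqin ratio was −1.91. Without thinning, the Ujumqin barcodes held 318.5 more genes than the others and the Hulunbuir ones 435.5 more, where thinning gave 10 more and 8 fewer. The main Ujumqin cluster held 73.0% with the rule genes kept and 50.5% with the libraries clustered together, where the main Hulunbuir cluster held 51.5%.

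Counts of features 4-fold apart moved with the limits. Against other barcodes of that depth in the Ujumqin library the count of 64 became 1935 with no minimum CPM, 31 with 50 CPM, 100 with 5 UMIs, 375 against the barcodes under 1% erythroid, 121 without the main cluster and 284 at 2-fold. In the Hulunbuir library 35 became 263 with no minimum, 19 with 50 CPM, 63 against keratin barcodes without CRABP or STMN2 and 153 at 2-fold. Against deeper barcodes the Ujumqin count of 77 became 308 with no minimum, 23 with 50 CPM, 213 with 5 UMIs, 160 as a mean over cells, 127 with mitochondrial, ribosomal and erythroid genes off the total, 184 with thinning to 1000 UMIs, 120 without the main cluster and 441 at 2-fold. The Hulunbuir count of 3 became 1058, 8 with thinning to 1000 UMIs, 1 with 4000 UMIs and 40 at 2-fold. Between libraries 280 became 682 with no minimum, 84 with 50 CPM, 146 relative to the median and 1063 at 2-fold. The split into higher and lower also moved. Against other barcodes of that depth in the Ujumqin library, 13 and 51 became 61 and 60 without the main cluster, 1824 and 111 with no minimum CPM and 3 and 28 with 50 CPM. Against deeper barcodes, 18 and 59 became 44 and 76 without the main cluster, 13 and 10 with 50 CPM, 19 and 141 as a mean over cells, 11 and 173 with thinning to 1000 UMIs and 3 and 89 with 4000 UMIs. In the Hulunbuir library, 6 and 29 became 92 and 171 with no minimum CPM and 23 and 40 against keratin barcodes without CRABP or STMN2, and against deeper barcodes 0 and 3 became 1009 and 49 with no minimum. The fold of 2, the split without the main cluster, the centring and the erythroid limit on deeper barcodes were added after the data were seen.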
